A study of Homo sapiens with 8 samples.

Results

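The 4 samples with replicate number 2 were set against the 4 with replicate number 1, each within its own line, so that 4 pairs of RNA samples were compared and all 8 of the 8 samples of the series were used. The lines are TR1, TR2 and TR3, which are TRAIL-resistant subclones of the Jurkat line, and WT, the parental Jurkat cells that are sensitive to TRAIL. Jurkat is an established human T cell leukaemia line, and TRAIL is a ligand of the tumour necrosis factor family that kills cells through death receptors. Each resistant line was obtained by selection with 1000 ng/mL TRAIL for 12 weeks, per the labels, while the WT samples were untreated, and all lines grew in the same serum-containing medium. Each line therefore has 1 replicate 2 sample and 1 replicate 1 sample, described as biological duplicates. No source used here says whether the number marks a culture, an extraction, an amplification or an array run, so these cannot be told apart. Each resistant line is 1 clone, and the samples are bulk RNA, in which fewer cells of a kind and less RNA per cell cannot be told apart.

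Cells that run short of oxygen stop degrading the alpha subunits of the hypoxia-inducible factors, transcription factors that then switch on genes for glucose uptake, glycolysis, mitochondrial turnover and blood vessel growth. The enzymes that mark these subunits for degradation, the EGLN prolyl hydroxylases, need oxygen, and EGLN1 is itself a target of the pathway. Several of the same genes also respond to nutrient supply and growth signals. Immediate-early genes such as FOS and EGR1 are switched on within minutes of serum or receptor stimulation and fade again, and in T cells CD69 behaves in much the same way.

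Expression was measured as the processed probe intensity on Illumina HumanRef-8 arrays, in arbitrary units that cannot be compared between probes. Between 12408 and 13437 of the 22184 probes were detected per array, and the processed columns share 1 distribution with a median of 77.2 or 77.21. Of the 14 T cell marker genes analysed, 12 were detected on all 8 arrays, CD4 on 5 and PTCRA on 0. Their summed intensity was 17729 to 19048 in replicate 2 and 17460 to 18957 in replicate 1. CD2 was the 1 called gene of 13 tested, beside 3.29% of all genes called higher and 1.7% called lower. It rose by 0.25 ± 0.07 (SE, n = 4 pairs, adjusted p = 0.048 by limma). Its adjusted p was 0.26, 0.098 and 0.14 without the pair of TR1, TR3 and WT, and 0.19 after a normexp background correction. At an unadjusted p under 0.05, 2 of the 13 were higher and 5 lower, beside 2376 of the 13130 probes tested in either direction. The list median was -0.07 on the log2 scale. CD3G, CD3E and CD28 stood at -0.23, -0.16 and -0.16, and CD5 at 0.21, none of them called. Markers of other cell types were detected in part. Of 9 B cell markers 5 were detected on 0 arrays, among them MS4A1 and PAX5, while CD79A and CD79B were detected on all 8. Of 11 myeloid markers 6 were on 0 arrays, among them CD14 and MPO, and CD68 and FCER1G on all 8. Of 9 red cell and platelet markers 5 were on 0 arrays, among them HBB, and HBA1, ITGA2B and PPBP on all 8. Of 11 epithelial and fibroblast markers 5 were on 0 arrays and COL1A1 on 6. Of the 9 B cell markers 4 were tested, and 1 of them, CD79A, rose by 0.48 ± 0.08 (adjusted p = 0.0019), beside the same 3.29% of all genes. CD79B, BANK1 and FCRL1 were not called, at 0.17, -0.03 and -0.02. The summed intensity of the 9 was 646 to 767 in replicate 2 against 613 to 677 in replicate 1. Within these sums CD79A had 94.2, 194.3, 207.0 and 238.5 in replicate 2 of TR1, TR2, TR3 and WT, against 88.3, 120.4, 159.1 and 141.2 in replicate 1. HBA1 fell by 0.26 ± 0.07 on the log2 scale (adjusted p = 0.036, and 0.19, 0.065 and 0.16 without the pair of TR1, TR2 and WT, and 0.1 under normexp). ITGA2B went the other way in all 4 lines, at 0.26 ± 0.08, and was not called (adjusted p = 0.055). The median over the 3 tested red cell and platelet markers was 0.03, and the 9 analysed summed to 701 to 726 in replicate 2 and 685 to 743 in replicate 1. The 11 myeloid and 11 epithelial and fibroblast markers had no called gene, with sums of 777 to 812 and 644 to 678 in replicate 2 and of 787 to 812 and 641 to 669 in replicate 1. The part of these markers in the results below was not tested.

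The replicate 2 samples differed from the replicate 1 samples in the same direction across the lines for many genes. Among the 13130 probes tested, 413 were higher in replicate 2 (3.15%) and 225 were lower (1.71%), 4.86% in either direction, at an adjusted p under 0.05 by limma with the line as a block. Counted as genes, 351 of 10681 were higher (3.29%) and 182 were lower (1.7%), and 2376 probes had an unadjusted p under 0.05. Most differences were small, with 36 of the probes called higher and 2 of those called lower reaching 1.5-fold. The replicate number accounted for 17.63% of the sum of squares over the tested probes, the line for 64.53%, and 17.83% was left. The samples were each other's only measure of spread, and an exact sign-flip test over 4 pairs cannot go below p = 0.125, so the p-values rest on variances that limma pools over all probes. Fewer probes were called after a normexp background correction (178 higher and 58 lower, 75.42% of calls higher against 64.73%), without the pair of TR2 (209 and 82), without that of WT (255 and 116) and without that of TR3 (284 and 118). With no line in the model, 1 probe, KDM3A, was called higher (adjusted p = 0.033) and 0 lower, with 1169 at an unadjusted p under 0.05.

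The hypoxia response list had the highest median difference of the lists examined. Of 13 tested members, 9 rose and 0 fell, and the median difference was 0.60 on the log2 scale (0.46 in TR1, 0.67 in TR2, 0.41 in TR3 and 0.61 in WT), beside -0.006214 over all genes tested and 3.29% of genes called higher. BNIP3, a mitochondrial protein that marks mitochondria for removal, had intensities of 3906, 6832, 5882 and 7419 in replicate 2 of TR1, TR2, TR3 and WT, against 1439.8, 2568, 4341 and 3221 in replicate 1 of the same lines. Every line was higher in replicate 2, although TR1 replicate 2 lay below TR3 replicate 1. The mean difference was 1.12 ± 0.11 (SE, n = 4 pairs, adjusted p = 6.3e-06), or 2.18-fold. BNIP3L, its close relative in the same process, rose by 0.69 ± 0.07 (adjusted p = 1.4e-05).

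ADM, which encodes the vasodilator peptide adrenomedullin, had the largest mean difference in the list and the most uneven one. Its intensities were 77.9, 2001, 1649 and 555.6 in replicate 2 of TR1, TR2, TR3 and WT, against 77.9, 158.8, 394.1 and 289.4 in replicate 1. TR1 was thus equally low in both, while TR2 was 3.66 higher on the log2 scale. The mean rise was 1.67 ± 0.32 (adjusted p = 0.0041). The call was lost under normexp (adjusted p = 0.1) and under a trended and robust prior (adjusted p = 0.41).

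KDM3A, a histone demethylase whose own gene responds to low oxygen, rose by a similar amount in every line. It stood at 371.5, 411.3, 410.2 and 438.6 in replicate 2 of TR1, TR2, TR3 and WT, against 262.4, 257.7, 270.2 and 288.0 in replicate 1. The groups did not overlap, and the mean rise was 0.60 ± 0.06 (adjusted p = 6.3e-06). Groups without overlap in this direction were seen in 2.55% of all genes tested and in 133 of the 351 genes called higher. Among the called genes they were seen in 4 of 9 of the hypoxia response list and 5 of 11 of the glycolysis list. EGLN1, the main oxygen-sensing prolyl hydroxylase, had 241.4, 353.2, 280.1 and 379.7 in replicate 2 and 166.8, 186.5, 228.8 and 238.0 in replicate 1. It also did not overlap, and rose by 0.61 ± 0.08 (adjusted p = 0.00011).

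P4HA1, the catalytic subunit of collagen prolyl 4-hydroxylase, rose by 0.84 ± 0.07 (adjusted p = 1.9e-06), but its second probe, detected on 6 of 8 arrays, stood at 0.18 ± 0.07 (adjusted p = 0.17). DDIT4, an inhibitor of the growth kinase complex mTORC1, rose by 0.79 ± 0.09, NDRG1 by 0.59 ± 0.07 and ANKRD37 by 0.55 ± 0.10 (adjusted p = 3e-05, 2.9e-05 and 0.002). INSIG2, RORA, ERO1A and MXI1 were tested and not called, with mean differences of 0.20, 0.11, 0.09 and 0.04. Also in the list, VEGFA, EGLN3, PDK1, P4HA2 and JMJD6 were too dim for the test, with each probe detected on 0 to 2 arrays, and CA9 was not analysed here. Under a trended and robust prior the BNIP3 (adjusted p = 0.12) and ANKRD37 (0.09) calls were lost, and under normexp that of ANKRD37 (0.061).

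Many glycolysis genes rose as well. Of 20 tested members 11 rose and 0 fell, beside 3.29% of all genes called higher, with a median difference of 0.25 beside -0.006214 over all genes (0.22 in TR1, 0.29 in TR2, 0.12 in TR3 and 0.42 in WT). PFKFB4, one of the enzymes that make fructose 2,6-bisphosphate and so set the pace of glycolysis, had 1446, 2235, 1913 and 2857 in replicate 2 of TR1, TR2, TR3 and WT, against 568.2, 637.1, 1287 and 919 in replicate 1. All 4 replicate 2 values lay above all 4 replicate 1 values, and the rise was 1.34 ± 0.12 (adjusted p = 2.8e-06, but 0.13 under a trended and robust prior), or 2.53-fold. PFKFB3, an enzyme of the same family, rose by 0.70 ± 0.08 (adjusted p = 1.4e-05).

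At the entry to the pathway, the glucose transporters SLC2A3 and SLC2A1 rose by 0.52 ± 0.08 and 0.39 ± 0.07 (adjusted p = 0.00079 and 0.0033), and the hexokinases HK2 and HK1 by 0.72 ± 0.08 and 0.59 ± 0.06 (adjusted p = 1.4e-05 each). HK2 read 801.4, 1042.5, 795.5 and 887.4 in replicate 2 and 459.9, 515.2, 611.0 and 550.8 in replicate 1, with no overlap. Further down, the aldolase ALDOC rose by 0.81 ± 0.10 (adjusted p = 5.3e-05), and the isomerase GPI, PGK1, TPI1 and the aldolase ALDOA by 0.41, 0.29, 0.26 and 0.24 (adjusted p = 0.00072, 0.025, 0.017 and 0.036). A second ALDOA probe, picked out after its values were seen, rose by 0.49 ± 0.06 (adjusted p = 0.00014). LDHA, GAPDH and ENO1 were not called, at 0.13, -0.02 and 0.00. GAPDH had intensities of 23615 to 25256 in replicate 2 and 24237 to 25641 in replicate 1, while its second probe stood at 0.17 ± 0.06 (adjusted p = 0.094). Without the pair of TR1, TR2 or WT, or under normexp, PGK1, TPI1 and ALDOA were no longer called (adjusted p from 0.054 to 0.18), and SLC2A1 had an adjusted p of 0.052 under normexp.

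**Figure D1:**
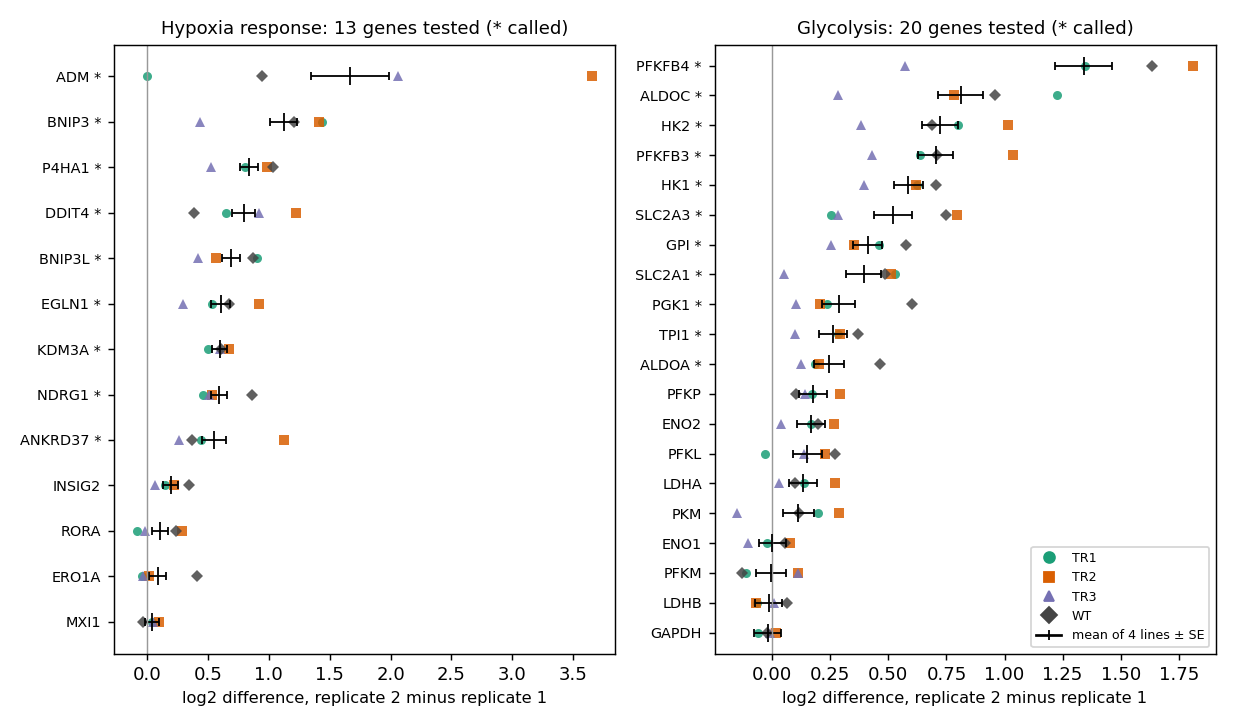
Log2 difference of processed intensity, replicate 2 minus replicate 1, for every tested gene of the hypoxia response list (left, 13 genes) and the glycolysis list (right, 20 genes). Symbols are the 4 lines, the black mark is their mean with its SE, an asterisk marks an adjusted p under 0.05, and the TR3 symbol lies lowest for 15 of the 20 called genes.

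The promoters of 3 of these genes show the DNA letters that hypoxia-inducible factors are known to recognise. The core letters ACGTG were searched on both strands in the 250 bases before the RefSeq start site (GRCh38.p14), so that the palindrome CACGTG counts as a match on each strand. Motifs, and the promoters shown, were chosen after the expression values were seen. Capitals mark the matches, which are descriptions of sequence and not binding sites. ANKRD37 lies at chr4:185396591-185396840 (plus strand) with 3 matches, BNIP3 at chr10:131981924-131982173 (minus strand) with 2 and EGLN1 at chr1:231422288-231422537 (minus strand) with 1.
ANKRD37: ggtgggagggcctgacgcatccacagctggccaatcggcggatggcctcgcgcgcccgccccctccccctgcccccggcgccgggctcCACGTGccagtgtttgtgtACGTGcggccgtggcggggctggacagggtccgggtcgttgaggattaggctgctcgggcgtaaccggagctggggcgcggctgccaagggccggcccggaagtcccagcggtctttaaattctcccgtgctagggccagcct
BNIP3: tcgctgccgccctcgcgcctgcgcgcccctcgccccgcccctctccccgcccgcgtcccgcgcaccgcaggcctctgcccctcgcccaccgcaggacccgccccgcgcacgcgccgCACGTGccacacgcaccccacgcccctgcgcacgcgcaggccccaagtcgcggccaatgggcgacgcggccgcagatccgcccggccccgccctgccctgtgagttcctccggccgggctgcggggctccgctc
EGLN1: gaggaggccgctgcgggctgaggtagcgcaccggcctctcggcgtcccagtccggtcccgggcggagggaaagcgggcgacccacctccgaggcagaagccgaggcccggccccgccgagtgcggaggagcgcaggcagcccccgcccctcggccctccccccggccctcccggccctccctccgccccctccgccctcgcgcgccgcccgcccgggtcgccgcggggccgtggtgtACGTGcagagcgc

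Of the 9 hypoxia response genes that rose, 7 had a promoter entry and 5 of these held the letters, as did 5 of the 10 risen glycolysis genes with an entry. ADM, KDM3A and PFKFB4 held none in this window. Among all genes that rose, 75 of 269 promoters held a match (27.88%), beside 20.51% for genes that fell, 23.54% for all genes tested and 18.68% of all 27305 promoters. Of the tested genes that were not called, 2 of 4 in the hypoxia list (50%) and 3 of 9 in the glycolysis list held it, among them LDHA with 5 matches, as did 7 of 16 immediate-early genes (43.75%).

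Several of the largest rises were in genes outside these lists. JAM3, a junctional adhesion molecule, had 3647, 6071, 5796 and 8533 in replicate 2 of TR1, TR2, TR3 and WT, against 1504, 1801, 3201 and 2728 in replicate 1. Its groups did not overlap, and it rose by 1.38 ± 0.10 (adjusted p = 1.5e-07), or 2.61-fold. LGMN, a lysosomal protease that cuts after asparagine, had 1950.5, 2880.1, 3006 and 3408 in replicate 2 and 591, 1275, 1446 and 1260.2 in replicate 1. It rose by 1.35 ± 0.08 (adjusted p = 1.8e-08), or 2.54-fold, again with no overlap. IGFBP2, which binds insulin-like growth factors, read 4375, 4829.6, 6767 and 8426 in replicate 2 and 1433, 2814, 3469 and 3101 in replicate 1. It rose by 1.20 ± 0.10 (adjusted p = 7.6e-07), also without overlap.

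STC2, a secreted glycoprotein induced by stress, rose by 0.97 ± 0.09 (adjusted p = 1.9e-06) and MKNK2, a kinase of the translation factor eIF4E, by 0.97 ± 0.10 (adjusted p = 1.1e-05). GNA15, a G protein alpha subunit of blood cells, rose by 0.91 ± 0.09 (adjusted p = 6.3e-06), and THEMIS, a T cell receptor signalling protein of thymocytes, by 0.78 ± 0.08 (adjusted p = 1.1e-05). EPAS1, the alpha subunit of a hypoxia-inducible factor, had 163.5, 111.0, 148.9 and 239.7 in replicate 2 of TR1, TR2, TR3 and WT, against 88.9, 90.0, 92.7 and 101.6 in replicate 1. It rose by 0.78 ± 0.10 (adjusted p = 7.8e-05) with no overlap, most in WT and least in TR2. AK4, a mitochondrial adenylate kinase, rose by 0.87 ± 0.09 on its brightest probe and by 0.68 ± 0.07 on a second, while another, detected on 3 of 8 arrays, stood at 0.05 ± 0.06 (adjusted p = 1.1e-05, 1.3e-05 and 0.72).

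Genes that were lower in replicate 2 moved less. PCDH19, a protocadherin, had 231.7, 108.8, 124.4 and 120.1 in replicate 2 of TR1, TR2, TR3 and WT, against 341.9, 176.8, 194.6 and 165.8 in replicate 1. It fell by 0.59 ± 0.06 on the log2 scale (adjusted p = 1e-05), and the overlap between groups came from TR1, where it was highest in both. CMPK2, a mitochondrial nucleotide kinase induced by interferon, had 140.0, 144.4, 108.2 and 116.7 in replicate 2 and 177.8, 227.0, 177.4 and 162.9 in replicate 1. It fell by 0.55 ± 0.07 (adjusted p = 5.3e-05) with no overlap, which was so for 2.84% of all genes tested in this direction and for 83 of the 182 genes called lower.

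The ID genes, whose products block the E proteins that drive T cell development, were among the called genes. ID1 read 1174, 1274, 597.5 and 558 in replicate 2 of TR1, TR2, TR3 and WT, against 1313, 2103, 835.3 and 984.4 in replicate 1. It fell by 0.55 ± 0.08 (adjusted p = 0.00052), while a second ID1 probe stood at -0.26 ± 0.07 (adjusted p = 0.051). ID2 fell by 0.41 ± 0.07 (adjusted p = 0.001) and ID3 by 0.30 ± 0.08 (adjusted p = 0.025). ID3 was no longer called without the pair of TR2 (adjusted p = 0.2), without that of WT (0.14) or under normexp (0.16).

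RASGRP2, an activator of the small GTPase Rap in lymphocytes and platelets, fell by 0.44 ± 0.06 (adjusted p = 0.00019) and ANXA2, a membrane-binding annexin, by 0.43 ± 0.07 (adjusted p = 0.00096). The smooth muscle actin gene ACTG2 fell by 0.45 ± 0.09 and GIMAP5, a lymphocyte survival GTPase, by 0.40 ± 0.08 (adjusted p = 0.0044 and 0.0074). For both, TR1 did not share the size of the change, at -0.01 and -0.03, and both calls were lost without the pair of TR2 (adjusted p = 0.067 and 0.095) and under normexp (0.069 and 0.1). The serotonin receptor gene HTR2B, SH3GL2, SERPINI1, HEMK2 and IFRD1 fell by between 0.36 (IFRD1) and 0.39 (HTR2B). RGPD1 fell by 0.40, but it has near-identical copies that 1 probe may not tell apart.

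**Figure D2:**
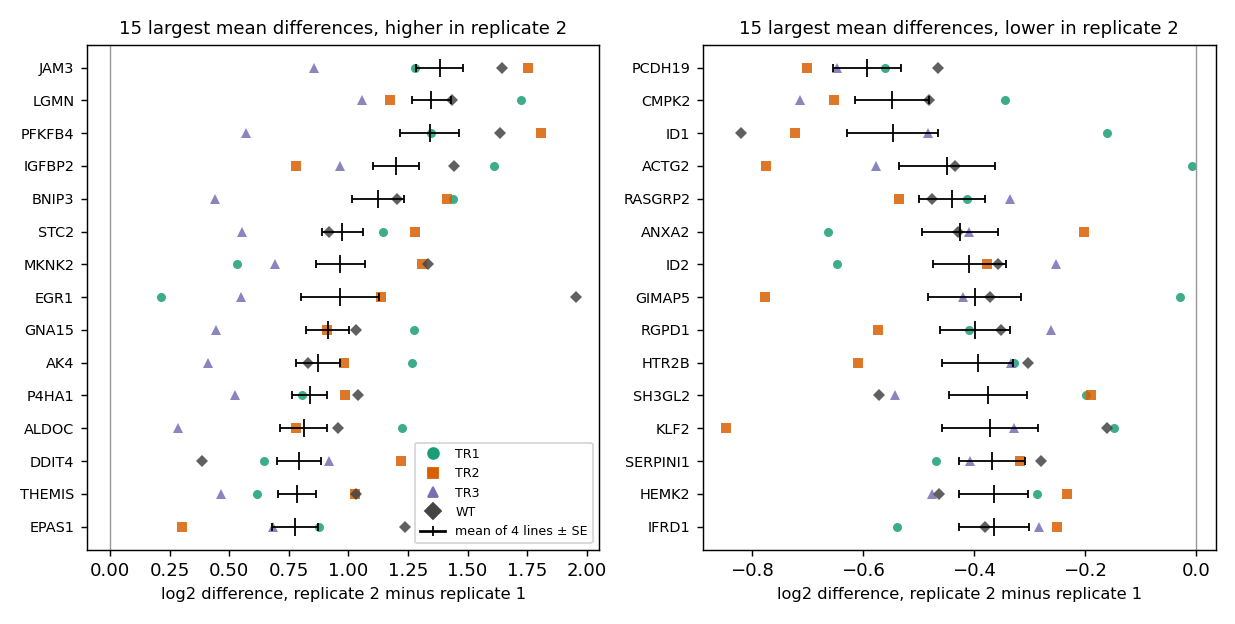
Log2 difference of processed intensity, replicate 2 minus replicate 1, for the 15 genes with the largest mean rise (left) and the 15 with the largest mean fall (right) among genes called with the same sign in all 4 lines. Symbols are the 4 lines and the black mark is their mean with its SE, and the horizontal scales differ: rises reach 1.38 (JAM3) and falls -0.59 (PCDH19).

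Of 21 tested immediate-early genes, 4 rose and 1 fell, beside 3.29% and 1.7% of all genes tested. In all 4 lines 9 were higher, beside 12.4% of all genes. Also in the list, JUN, JUNB, FOSL1, EGR3, DUSP6, NR4A1 and NR4A2 were too dim for the test. Each of their probes was detected on 0 to 3 arrays, and mean differences ran from -0.06 (NR4A1) to 0.07 (EGR3). The list's median difference was 0.29 in WT, against 0.06 in TR1, 0.08 in TR2 and 0.06 in TR3, a difference between lines that was not tested for the list. EGR1, a zinc finger transcription factor, had 443.6, 1024.5, 858.2 and 1718 in replicate 2 of TR1, TR2, TR3 and WT, against 382.4, 466.3, 586.3 and 443.0 in replicate 1. The rise was 0.96 ± 0.16 (adjusted p = 0.0015), and it was not called under normexp (adjusted p = 0.059) or a trended and robust prior (0.34). IER3 rose by 0.67 ± 0.09, ATF3 by 0.61 ± 0.08 and DUSP5, a phosphatase that shuts off ERK signalling, by 0.28 ± 0.06 (adjusted p = 0.00015, 0.00019 and 0.01). KLF2, a transcription factor of resting T cells, was the member that fell, by 0.37 ± 0.09 (adjusted p = 0.016), with -0.85 in TR2 and -0.15 to -0.33 elsewhere. Without the pair of TR2 the adjusted p was 0.15 for KLF2 and 0.086 for DUSP5, and without that of WT it was 0.056 for DUSP5. Both calls were lost under normexp (adjusted p = 0.15 and 0.058).

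EGR1 is known to be controlled by serum response factor, which reads CArG boxes. In the 250 bases before its start site, chr5:138465229-138465478 (plus strand), the letters CCATAT, any 2 bases and GG occurred 2 times on either strand and are in capitals. They were chosen after the EGR1 promoter had been read, and were found in 0.3076% of all promoters and in 2 of the 16 tested immediate-early genes with an entry.
EGR1: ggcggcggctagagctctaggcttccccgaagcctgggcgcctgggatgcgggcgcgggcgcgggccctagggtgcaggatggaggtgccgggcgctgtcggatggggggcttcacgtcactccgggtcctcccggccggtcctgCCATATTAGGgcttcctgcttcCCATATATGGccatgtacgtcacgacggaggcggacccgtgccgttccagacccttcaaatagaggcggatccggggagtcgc

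The counts for the next lists stand beside 3.29% of all genes called higher and 1.7% called lower. Of 35 ATF4 target genes, which answer amino acid shortage, 6 rose and 0 fell: beside STC2 and DDIT4 these were asparagine synthetase, ASNS (0.53 ± 0.08, adjusted p = 0.00096), and, more weakly, CHAC1, TRIB3 and SLC38A2 (0.25, 0.24 and 0.23). ASNS was 0.80 higher in TR3 and in WT, against 0.23 in TR1 and 0.28 in TR2. CHAC1, TRIB3 and SLC38A2 each lost the call without the pair of WT (adjusted p = 0.11, 0.12 and 0.095), and also without at least 1 other pair (adjusted p up to 0.2, 0.26 and 0.19). Of 24 genes of the unfolded protein response, EDEM1, XBP1 and HERPUD1 rose by 0.29, 0.28 and 0.24, while the chaperone CALR fell by 0.29 (adjusted p = 0.0071, 0.014, 0.041 and 0.039). CALR stood at -0.69 in WT and -0.10 to -0.19 in the resistant lines, and without the pair of WT its adjusted p was 0.22, and without any other pair 0.052 to 0.058. HERPUD1 lost its call without any 1 pair (adjusted p from 0.052 to 0.19), XBP1 without that of TR1, TR2 or WT (0.051 to 0.089) and EDEM1 without that of TR2 (0.077). Under normexp these 4 and the 3 weaker ATF4 targets were not called (adjusted p from 0.059 to 0.19).

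Among thymocyte and T leukaemia regulators, 4 of 30 rose (13.33%) and 2 fell (6.667%), beside 3.29% and 1.7% of all genes. RUNX3, TOX, DNTT, the DNA polymerase of V(D)J joining, and CD1A rose by 0.37, 0.31, 0.30 and 0.25 (adjusted p = 0.0019, 0.0063, 0.021 and 0.032), and the members that fell were ID2 and ID3. A second RUNX3 probe stood at 0.04 ± 0.06 (adjusted p = 0.78). In the T cell activation list 3 of 9 rose (33.33%): CD27, a costimulatory receptor, by 0.42 ± 0.06, NFATC1 by 0.32 ± 0.06 and the adaptor SLA by 0.30 ± 0.06 (adjusted p = 0.00071, 0.0041 and 0.0044). Of 17 FOXO targets and quiescence genes 3 rose (17.65%) and 1, KLF2, fell (5.882%). PIK3IP1, FOXO3 and BCL6 rose by 0.29, 0.29 and 0.28 (adjusted p = 0.006, 0.0067 and 0.016). Of these, DNTT was not called without the pair of TR1 or TR2 (adjusted p = 0.11 and 0.19), BCL6 without that of TR1, TR2 or WT (0.084, 0.067 and 0.086), and CD1A without that of TR2, TR3 or WT (0.055, 0.15 and 0.16). PIK3IP1 was lost without TR2 (adjusted p = 0.057) and FOXO3 without TR3 (0.055). DNTT, BCL6 and CD1A were lost under normexp, as were TOX, SLA and FOXO3 (adjusted p from 0.057 to 0.16).

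In the TRAIL and death receptor pathway 1 of 22 tested genes rose and 0 fell, a share of 4.545% that lies near the 3.29% over all genes. TNFRSF10B, the death receptor DR5, had 531.4, 481.8, 517.7 and 593.3 in replicate 2 of TR1, TR2, TR3 and WT, against 467.6, 402.7, 440.4 and 430.6 in replicate 1. Its groups did not overlap and it rose by 0.28 ± 0.06 (adjusted p = 0.01), though not without the pair of TR2 or WT or under normexp (adjusted p = 0.052, 0.062 and 0.08). CASP8, FADD and CFLAR were not called, at -0.02, -0.07 and -0.03. Of 22 interferon-stimulated genes 2 rose (9.091%) and 1 fell (4.545%), beside 3.29% and 1.7% of all genes. IFITM1 and BST2 rose by 0.32 and 0.31 and RSAD2 fell by 0.33 (adjusted p = 0.023, 0.0097 and 0.0029). IFITM1 differed most in TR1, at 0.71 against 0.10 to 0.23 elsewhere, and BST2 in TR3, at 0.57, and each lost its call without that line's pair (adjusted p = 0.16 and 0.11), IFITM1 also without that of TR2 (0.071) and under normexp (0.15).

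The other called list members that rose were ACSS2, TNFAIP3, BTG1, BAG3 and CENPF (0.37, 0.29, 0.41, 0.21 and 0.25). Those that fell were NQO1, H1-2, LUC7L and SRSF10 (-0.28, -0.32, -0.27 and -0.26). Called were 1 of 12 fatty acid genes, 1 of 15 NF-kB targets and 1 of 19 heat shock genes. Of mitosis, oxidative stress and histone genes 1 of 33, 1 of 15 and 1 of 14 were called. For splicing and cell cycle inhibitors it was 2 of 29 and 2 of 22. These counts stand beside 3.29% of all genes called higher and 1.7% called lower, and no list was tested against those shares. A second ACSS2 probe stood at 0.06 ± 0.06. Except for ACSS2 and BTG1, each gene named in this paragraph so far lost its call under normexp (adjusted p from 0.06 to 0.19) and without at least 1 pair (adjusted p from 0.053 to 0.23). In the lysosome and autophagy list BNIP3L was the 1 called gene of 20 (5%), near the share over all genes.

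Of the remaining lists, 10 had no called gene by limma. None of 40 DNA replication genes (1 at an unadjusted p under 0.05), 42 cytosolic ribosomal protein genes (2), 50 oxidative phosphorylation genes (4), 26 proteasome genes (0), 30 ribosome biogenesis genes (6), 33 mitochondrial ribosome genes (5), 19 cholesterol genes (5), 23 vesicle and Golgi transport genes (4) and 6 metallothionein and zinc genes (1) was called. The counts in brackets in this paragraph stand beside 2376 of the 13130 probes tested, and no list was tested against that share. Counts near that share were seen for ribosome biogenesis (6 of 30) and the mitochondrial ribosome (5 of 33). All of these members with an unadjusted p under 0.05 were lower in replicate 2. The mitochondrial ribosome list had the lowest median, -0.09, with -0.19 in WT and -0.04, -0.05 and -0.08 in TR1, TR2 and TR3. Of its 33 genes 9 were lower in all 4 lines and 0 were higher, beside 12.7% and 12.4% of all genes tested. The 6 tested MondoA and glucose response genes gave 0 calls (4 at an unadjusted p under 0.05). Among them TXNIP, an inhibitor of glucose uptake, had 1211, 58.0, 53.1 and 206.4 in replicate 2 of TR1, TR2, TR3 and WT, against 740.4, 69.4, 56.1 and 125.7 in replicate 1, and it was detected on 5 of 8 arrays. It was higher in TR1 and WT and lower in TR2 and TR3, with a mean of 0.27 ± 0.12 (adjusted p = 0.22).

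**Figure D3:**
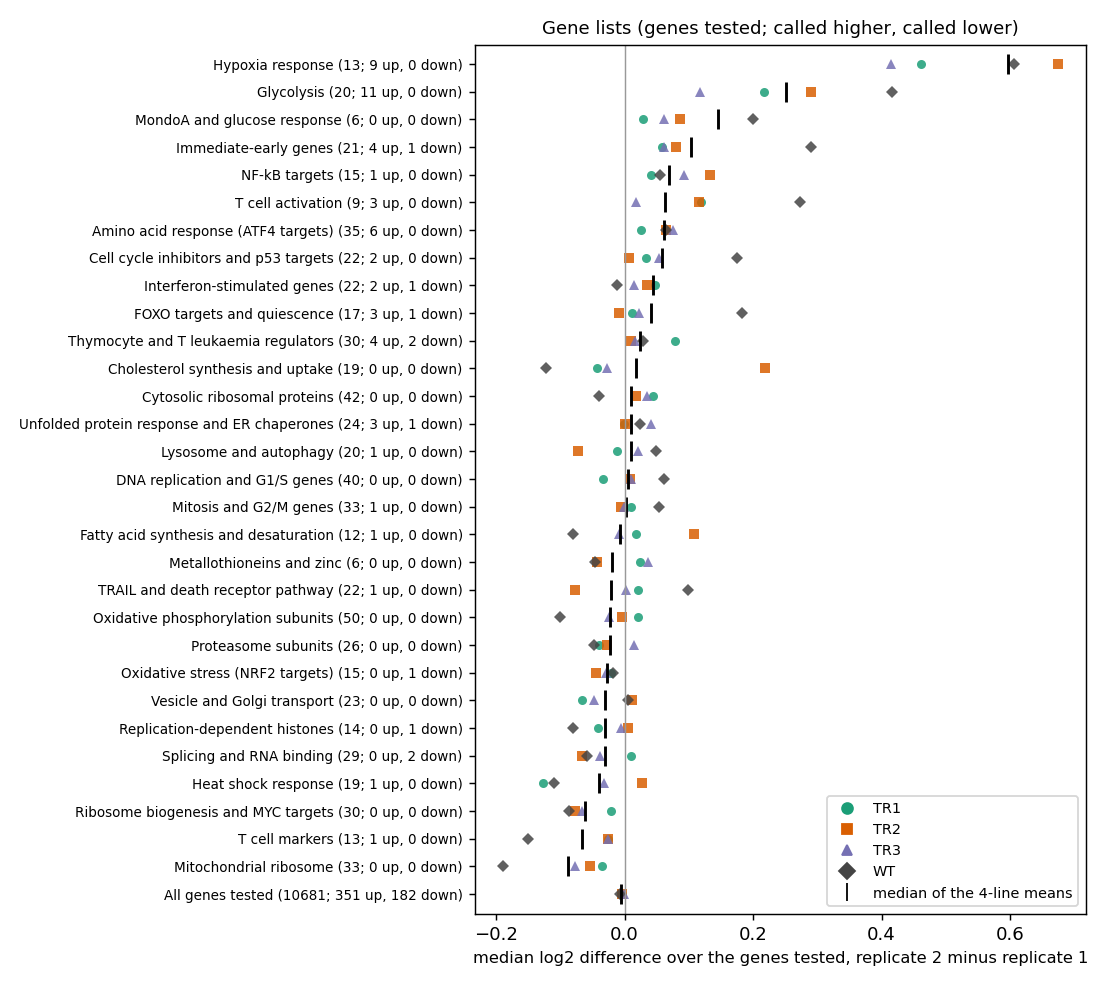
Median log2 difference, replicate 2 minus replicate 1, over the tested genes of each list, with symbols for the 4 lines and a black bar for the median of the 4-line means. The number of genes tested and the numbers called higher and lower stand beside each name, lists with fewer than 6 tested genes are left out, and the hypoxia response list lies highest (0.60) and the mitochondrial ribosome lowest (-0.09).

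The lines were then compared in the size of their own difference. Its SD over the tested probes was 0.154 in TR1, 0.171 in TR2, 0.142 in TR3 and 0.199 in WT, and 15 probes were at least 1.5-fold higher in TR3, against 45 in TR1, 60 in TR2 and 90 in WT. Across the 13130 probes, which are not independent, the difference in one line correlated with that in another at 0.28 to 0.432. Each line was set against the other 3 by the interaction of line and replicate number, which had 2 residual degrees of freedom. It called 3 probes for TR1 (0.0228%), 0 for TR2 (0%, with 501 at an unadjusted p under 0.05), 2 for TR3 (0.0152%) and 3 for WT (0.0228%). All 8 calls were lost after normexp background correction, where the adjusted p was between 0.082 (KRT1) and 1 (BNIP3 and PFKFB4). Other settings gave more calls: 107, 15 and 30 for WT without the pair of TR1, TR2 and TR3 and 16 under a trended and robust prior, 10 and 24 for TR1 without that of TR3 and WT, 1, 3 and 13 for TR2 without that of TR1, TR3 and WT, and 6 and 8 for TR3 without that of TR1 and WT.

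TR3 changed less than the other lines in 2 genes, both from the lists above. Its BNIP3 difference was 0.44, against 1.44 in TR1, 1.41 in TR2 and 1.20 in WT, and the interaction was -0.91 ± 0.15 (SE, adjusted p = 0.027). Its PFKFB4 difference was 0.57, against 1.35 in TR1, 1.81 in TR2 and 1.64 in WT, with an interaction of -1.03 ± 0.17 (adjusted p = 0.027). Both interactions were also lost without the pair of TR2 (adjusted p = 0.54 each). In both genes the TR3 sample was the highest of the replicate 1 samples, while TR3 replicate 2 lay among the other replicate 2 values. The same was looked for in the other 18 called genes of the hypoxia and glycolysis lists after these values were seen. TR3 had the smallest difference in 13 of them (72.22%) and the highest replicate 1 value in 13, beside 33.9% and 45.58% of all genes called higher, as a description with no test. A difference and its replicate 1 value share a sample, so these shares are not independent.

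WT changed more than the other lines in 2 named genes, both of them early response genes. CD69, an early activation marker of T cells, had 346.7 in WT replicate 2 against 165.2 in WT replicate 1, and 149.0 to 184.2 in replicate 2 and 148.7 to 169.5 in replicate 1 of the resistant lines. The WT difference was 1.07, the others were 0.00 to 0.12, and the interaction was 0.99 ± 0.13 (adjusted p = 0.009). FOS had 149.3 in WT replicate 2 against 64.5 in WT replicate 1, and 71.2 to 86.6 in replicate 2 and 64.6 to 78.1 in replicate 1 of the resistant lines, with an interaction of 1.06 ± 0.16 (adjusted p = 0.017). Its probe was detected on 5 of 8 arrays. The third probe, ILMN_1743199, which the annotation leaves unnamed here and which was detected on 6 of 8 arrays, had 155.9 in WT replicate 2 and 67.7 in WT replicate 1 (interaction 0.98 ± 0.14, adjusted p = 0.016). With array weights the 3 calls were lost (adjusted p = 0.1, 0.14 and 0.14). EGR1 and IER3 also differed most in WT, with differences of 1.96 and 1.10, but their interactions of 1.32 and 0.57 were not called (adjusted p = 0.064 and 0.22). WT had the largest difference in 39.89% of all genes called higher.

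**Figure D4:**
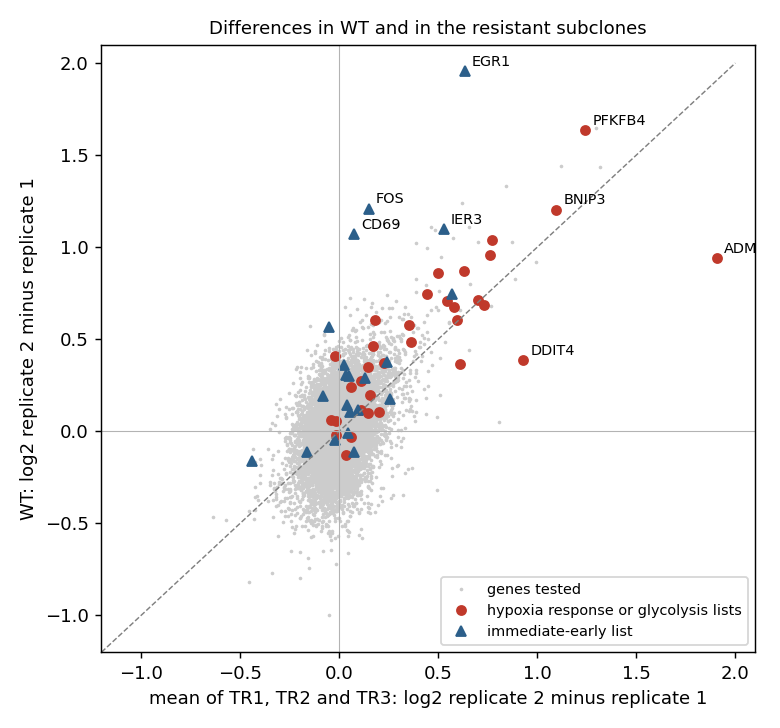
Log2 difference of processed intensity, replicate 2 minus replicate 1, in WT (vertical) against the mean of TR1, TR2 and TR3 (horizontal) for the genes tested, with hypoxia response or glycolysis genes as red circles, immediate-early genes as blue triangles and equality as the dashed line. FOS, CD69 and EGR1 lie above the line and ADM and DDIT4 below it, and 1 gene, C22orf39, falls outside the axes.

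TR1 changed in the opposite direction to most other lines in 3 genes. KRT1, a keratin of skin epithelium, had 596.0 in TR1 replicate 2 against 222.2 in TR1 replicate 1, whereas in TR2, TR3 and WT it had 132.4, 105.9 and 181.4 in replicate 2 against 206.7, 116.8 and 224.2 in replicate 1. The interaction was 1.79 ± 0.17 (adjusted p = 4.9e-05). Of the epithelial markers, KRT8 and KRT19 were detected on 0 of 8 arrays, EPCAM on 1 and KRT18 and CDH1 on 3 each, and their part in this result was not tested. FXYD2, a regulator of the sodium pump, had 390.7 in TR1 replicate 2 against 142.8 in TR1 replicate 1, with 466.2, 410.4 and 575.7 in replicate 2 and 348.8, 540.0 and 717.2 in replicate 1 of TR2, TR3 and WT. Its interaction was 1.55 ± 0.22 (adjusted p = 0.01, but 0.6 under a trended and robust prior), and on a second probe, detected on 7 of 8 arrays, the interaction was 0.49 ± 0.15 (adjusted p = 0.78).

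LGALS1, which encodes the galectin that can kill activated T cells, had 202.2 in TR1 replicate 2 against 170.7 in TR1 replicate 1. In TR2, TR3 and WT it had 191.2, 202.6 and 201.4 in replicate 2 against 273.5, 337.7 and 343.7 in replicate 1. All 4 replicate 2 values thus lay within 191.2 to 202.6, and the lines differed in replicate 1. The interaction was 0.92 ± 0.15 (adjusted p = 0.027). Over the 4 pairs LGALS1 was called lower (-0.45 ± 0.11, adjusted p = 0.023), a call lost without the pair of TR2, TR3 or WT (adjusted p = 0.13, 0.12 and 0.17), under normexp (0.17) and under a trended and robust prior (0.39). For TR2 no interaction was called, and the smallest p-values each way, ADM and BHLHE40 (2.65 and 1.24 above the other lines) and SHISA2 and HBEGF (-0.98 and -0.68), had an adjusted p of 0.12, 0.12, 0.12 and 0.24.

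**Figure D5:**
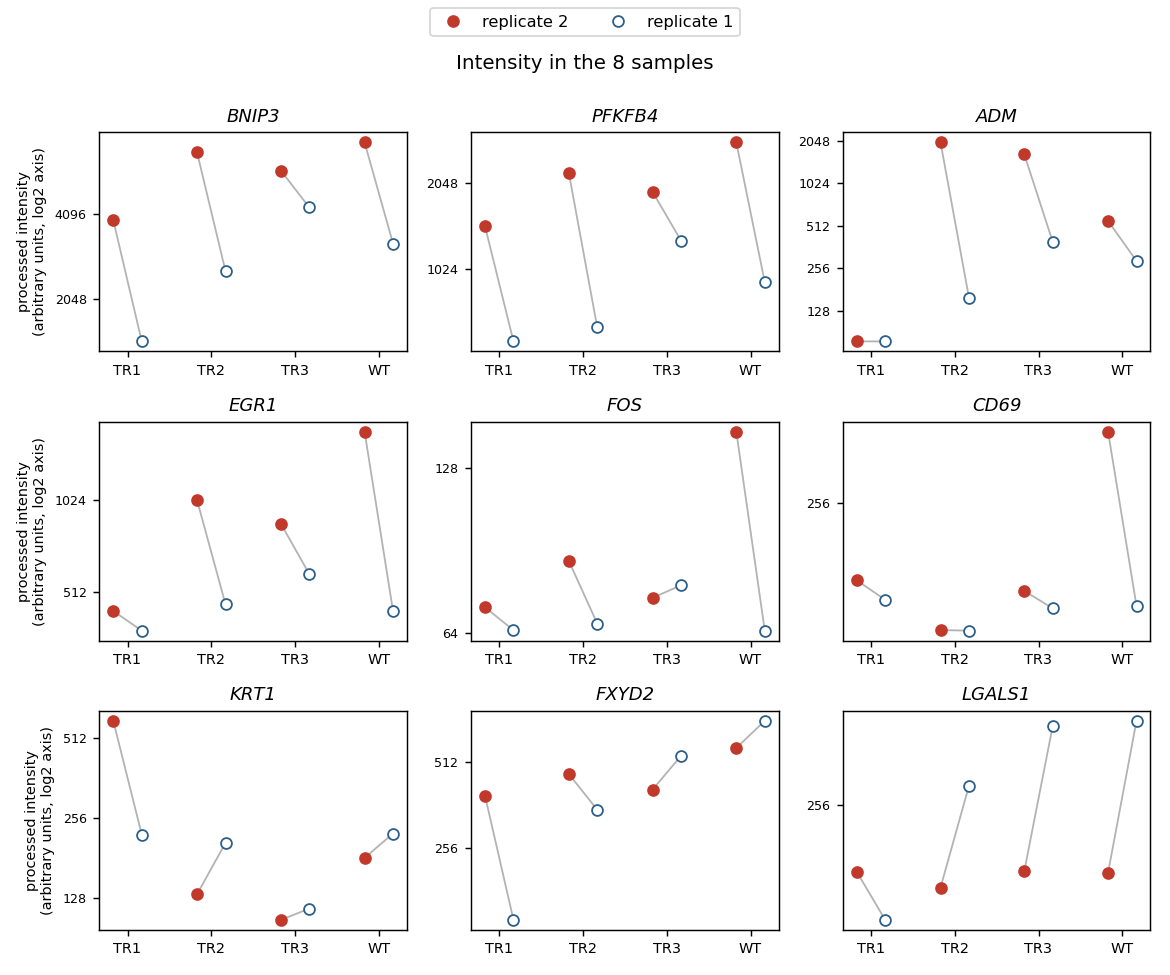
Processed intensity on a log2 axis in each line for 9 genes, with filled circles for replicate 2 left of open circles for replicate 1 and a line joining each pair. BNIP3, PFKFB4 and EGR1 are higher in replicate 2 in every line, ADM is level in TR1, FOS and CD69 differ mainly in WT, and KRT1 and LGALS1 are higher in replicate 2 in TR1 only among the 4 lines.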

How the data were processed

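The authors deposited a detection p-value per probe and array beside non-normalized values, per the file headers, and a table of processed intensity on a linear scale. RNA was amplified with an Ambion Illumina kit and labelled with biotin, per the labels' protocols, and limma is named without a version or a role, per the submitters' processing notes. No source used here gives the scanner software, background steps or normalization, and the processed columns share 1 distribution. Detection columns carry letters and processed columns replicate numbers, which were not matched, so detection is known per line. The 8 columns of non-normalized intensity were not used.

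The processed intensity was taken to log2 with no further correction. The test kept probes whose detection p-value was below 0.05 in both samples of 1 or more lines (13130 of 22184, 10681 genes, 1 probe a gene by highest mean). A single gene symbol was given for 19715 probes, more than 1 for 0 and none for 2469. Of the symbols, 19695 were updated through the gene identifier. limma 3.58.1 in R 4.3.3 was fitted with line and replicate number (3 residual and 15.82 prior degrees of freedom), with Benjamini-Hochberg adjustment over all tested probes. Whether replicates came from separate cultures is not stated beyond the words biological duplicates, and the number of arrays limits precision. The p-values measure how evenly the difference between replicate numbers held over 4 related lines, 3 of them subclones of the parental one. Whether a further replicate would repeat the difference was not tested. Alternatives were normexp on the processed values (background from probes detected on 0 arrays, offset 16), other filters on dim probes, no line in the model, each pair left out, a trended and robust prior, array weights, cyclic loess and median centring. The models were tested on simulated data. Named are up to 15 genes each way called with the same sign in 4 lines, up to 6 called and 3 other genes per list, up to 5 per line each way, and all T cell and TRAIL pathway genes. The remaining called hypoxia and glycolysis genes are named to complete those lists. Members, lists and alternatives were chosen with earlier results of these data known, and the hypoxia and glycolysis counts were picked for the alternatives after these results were seen.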

Additional observations from a re-analysis of the deposited data

Results flagged for a closer look

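In 4 of the 83 named genes whose 4 within-line differences were examined, 1 line stood apart from the others by Dixon's criterion. Chance meets it in about 1 of 20 groups that were not selected. The 83 genes were selected by their calls or by the response of 1 line, CD69 by that of WT, so this rate does not hold for them. The 4 were CALR in WT (-0.69, with -0.19 to -0.10 in the other lines), CD69 in WT (1.07), HTR2B in TR2 (-0.61, with -0.33 to -0.30 elsewhere) and NFATC1 in TR1 (0.16, with 0.36 to 0.38 elsewhere).

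The difference between replicate numbers in 1 line departed from that in the other 3, by limma's interaction test, for 8 probes. In TR1 these were KRT1 (1.79), FXYD2 (1.55) and LGALS1 (0.92), in TR3 PFKFB4 (-1.03) and BNIP3 (-0.91), and in WT FOS (1.06), CD69 (0.99) and the unnamed probe ILMN_1743199 (0.98). Each value is the line's difference minus the mean of the other 3, on the log2 scale.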

How the results depend on the processing

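Of 77 named genes called over the 4 pairs, 40 were called under every alternative except the one with no line in the model, and 0 changed sign under any. The probes called higher numbered 178 under normexp, 1 with no line in the model and 209 to 348 with 1 pair left out. Those called lower numbered 58, 0 and 82 to 180. Under normexp the response of TR1, TR3 and WT each had 0 called probes and glycolysis 7 called genes, and with no line in the model hypoxia had 1 and glycolysis 0. With 1 pair left out the counts were 3 to 24 for TR1, 1 to 13 for TR2, 0 to 8 for TR3, 15 to 107 for WT, 9 to 9 for hypoxia genes and 8 to 11 for glycolysis genes. With no filter on dim probes TR2 had 1 and WT 8, and WT had 16 under a trended and robust prior and 0 with array weights. With a pair left out the fit has fewer samples, and some counts rose while others fell. The cause of the changes was not tested under any setting. Of 407 recomputed list medians, 397 moved by less than the SD between lines. Centring on the median changed nothing because the columns already share it. No paired analysis was possible with the replicate number as a block because that number is the contrast itself, and the pairing by line is in the model.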

Other observations

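C22orf39, picked out after its values were seen, had 356.5, 17.6, 17.6 and 17.6 in replicate 2 of TR1, TR2, TR3 and WT, against 373.2, 358.4, 17.6 and 338.8 in replicate 1. The value 17.59 is the lowest in the processed table, and the probe was detected on 4 of 8 arrays. C22orf39 was called lower, at -2.17 ± 0.50 on the log2 scale (adjusted p = 0.014 by limma), and was lower in 3 of the 4 lines. This call rests on values at that lowest level. Among 5338 brighter genes 198 rose and 99 fell, and among 5343 dimmer genes 153 rose and 83 fell. Of 10 genes with more than 1 called probe, 0 had probes called in opposite directions.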
